A study of Arabidopsis thaliana with 7 samples.

Results

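The Arabidopsis genes AT2G41730, AT5G60250, AT2G18190 and AT2G03130 had higher signals in seedlings of the splicing mutant sta1 than in wild-type seedlings. They were chosen by name, each with its probe set on the Affymetrix ATH1 array, because earlier results of the same arrays had placed them among the largest rises in sta1. They make up 4 of the 22746 probe sets of plant genes. The values that chose them are the signals of sta1 and wild type themselves, so the comparison of these 2 groups is given for the 4 genes as a description, with no test. The genes had been grouped as nearly silent in wild type, and the signals bear this out for only part of them. AT2G03130 lay under a signal of 50 on all 5 wild-type arrays and AT5G60250 on 4 of 5, whereas AT2G18190 did so on 1 of 5 and AT2G41730 on 0 of 5.

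The series compared 2 sta1 arrays with 5 wild-type arrays, of which 4 carried RNA of Col-LUC and 1 of C24-LUC. These lines are named after the natural strains Col and C24 of Arabidopsis thaliana, with LUC added. The sample titles explain neither LUC nor the background strain of sta1. Seedlings were grown for 2 weeks on MS agar containing 3% sucrose, at 22 °C with 16 h of light and 8 h of darkness, and the titles list every group as untreated. The labels name the mutant sta1 without an allele, and the growth text of both sta1 samples speaks of the ice1 mutant and of a later treatment. The array record of Col-LUC 2 carries a comment on an abscisic acid experiment. The titles were followed in both cases. Nothing in the labels shows that samples of a group came from separate cultures, so every p-value measures the spread between these arrays, which may be technical.

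According to the title of the series, STA1 is a protein of the nucleus needed for pre-mRNA splicing, the step that removes introns from new transcripts before they leave the nucleus. The supplied gene tables give no name or function for the 4 genes beyond the locus, so no role is stated for them here. They were set beside genes of the mitochondrial dysfunction response, a programme in which plants switch on nuclear genes when respiration is impaired. Alternative NAD(P)H dehydrogenases, which pass electrons into the respiratory chain without pumping protons, are well-known members of it. The response to low oxygen was used as a further point of reference, since it also accompanies a failing supply of respiratory energy.

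The deposited values are MAS5 signals, a linear measure of brightness per probe set, which the authors scaled to a target of 500 on each array. The median signal lay between 207.8 and 215.7 on the 7 arrays. A signal under 50 is shared by 22.7% to 24.8% of the probe sets on each array, and differences among such signals were not read. For differences on the log2 scale, signals under 50 were therefore raised to 50 (a floor). Arrays set to the floor show no spread among themselves, so a standard error (SE) that rests on them understates the error. Col-LUC 1 came from the same chip lot as both sta1 arrays and from the same hybridisation session as sta1 1, and no other wild-type array is known to share either with sta1. With either sta1 array left out, 0 probe sets on the whole array passed the limma test of sta1 against wild type, with 1708 at an unadjusted p under 0.05 without sta1 1 and 1445 without sta1 2. The sta1 labels were not checked against the STA1 transcript, whose level was not analysed.

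AT2G41730, on chromosome 2, was above 50 on every array. Its probe set bears the x suffix that Affymetrix gives to sets with probes able to match other transcripts, so its signal may include related sequences. The signal was 542.2 on Col-LUC 1, 111.1 on Col-LUC 2, 165.2 on Col-LUC 3, 78 on Col-LUC 4 and 199 on C24-LUC. On sta1 1 it was 2340.3 and on sta1 2 it was 2784.9. The groups did not overlap, but Col-LUC 1 lay well above the other wild-type arrays, at 2.72 times the next highest. The lower sta1 array was 4.32 times the highest wild-type array. The log2 difference was 3.88 ± 0.63 (SE, 2 sta1 and 5 wild-type arrays), or 14.8-fold.

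AT5G60250, on chromosome 5, was near or below the limit of reading in wild type. Its signal was 89.7 on Col-LUC 1, 45.3 on Col-LUC 2, 10.8 on Col-LUC 3, 41.1 on Col-LUC 4 and 20.4 on C24-LUC. It reached 467.8 on sta1 1 and 512.9 on sta1 2, which differed from each other by a factor of 1.10. Col-LUC 1 was again the highest wild-type array and the only one above 50. The log2 difference was 3.12 ± 0.29, or at least 8.72-fold, since 4 of the 5 wild-type arrays stood at the floor.

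AT2G18190, on chromosome 2, was low in wild type but above 50 on 4 of the 5 arrays. Its signal was 51.1 on Col-LUC 1, 44.9 on Col-LUC 2, 56.3 on Col-LUC 3, 62.9 on Col-LUC 4 and 77.3 on C24-LUC. The sta1 arrays gave 425.2 and 536.7. The groups did not overlap, and the highest wild-type array was C24-LUC. The log2 difference was 3.02 ± 0.24, or at least 8.13-fold, since 1 wild-type array stood at the floor.

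AT2G03130, on chromosome 2, was the only one of the 4 under 50 on every wild-type array. Its signal was 35.9 on Col-LUC 1, 8.9 on Col-LUC 2, 19.9 on Col-LUC 3, 13.2 on Col-LUC 4 and 10.5 on C24-LUC. It was 227 on sta1 1 and 566.6 on sta1 2, so the sta1 arrays themselves differed by a factor of 2.50, the widest spread between them among the 4 genes. The sta1 mean was at least 7.17-fold higher than wild type (log2 difference 2.84 ± 0.34, with all wild-type arrays at the floor). The floor gave the wild-type arrays an SD of 0 beside 0.93 in sta1, so this SE understates the error. With sta1 1 left out the difference was 3.50, and with sta1 2 left out it was 2.18.

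**Figure D1:**
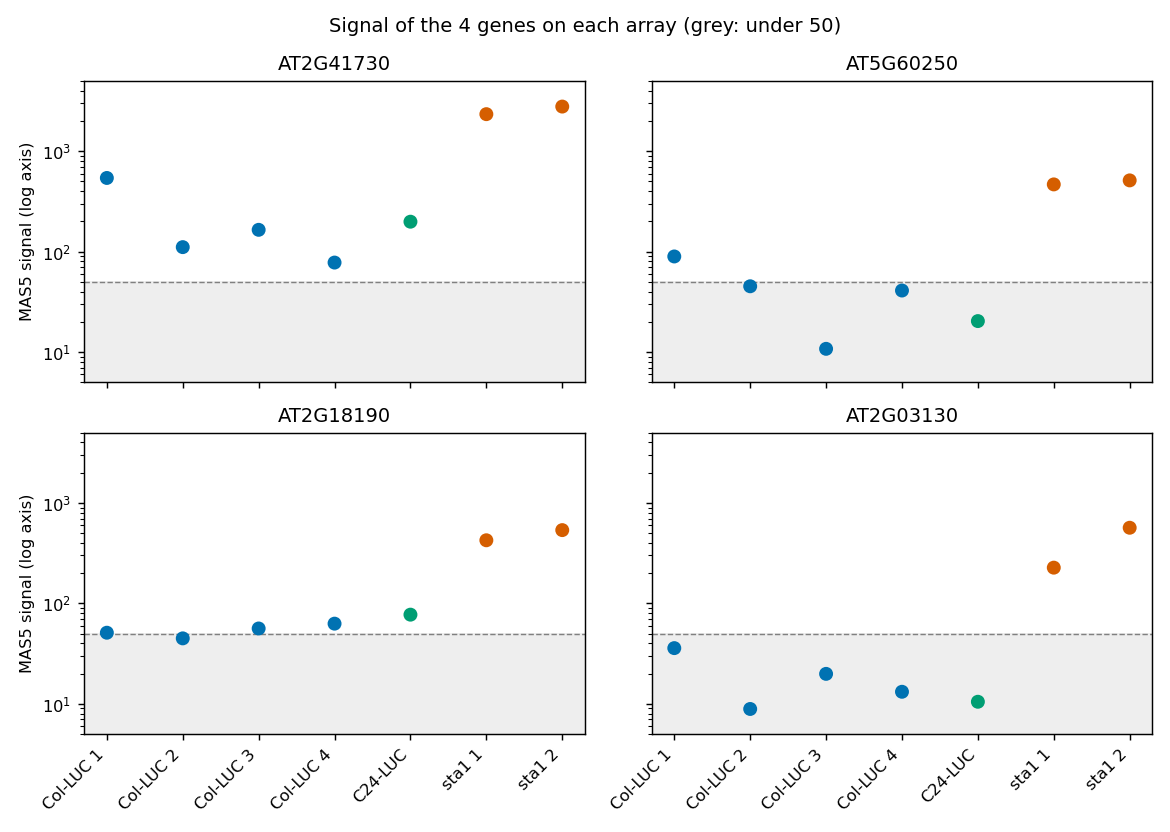
MAS5 signal (log axis) of AT2G41730, AT5G60250, AT2G18190 and AT2G03130 on each array, 1 point per array, with Col-LUC in blue, C24-LUC in green, sta1 in orange and the range under 50 shaded grey. Both sta1 points lie above all wild-type points in each panel, and 10 of the 20 wild-type points lie under 50.

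Over the 4 genes, 10 of 20 wild-type signals and 0 of 8 sta1 signals lay under 50. The wild-type signals nearest to that limit were 45.3 (AT5G60250, Col-LUC 2) and 44.9 (AT2G18190, Col-LUC 2) below it and 51.1 (AT2G18190, Col-LUC 1) and 56.3 (AT2G18190, Col-LUC 3) above it. All 4 genes had both sta1 arrays above all wild-type arrays, a pattern shared by 16.7% of tested probe sets. Because the genes were picked for this difference, nothing is read from that count. The median log2 difference of the 4 genes was 3.07, beside 0.01 over all tested probe sets. All 4 passed the filter for testing (at least 2 arrays with a signal of 100 or more), and 3 of them did so through the sta1 arrays alone, since AT5G60250, AT2G18190 and AT2G03130 reached 100 on 0 wild-type arrays.

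Few probe sets with so little wild-type signal were raised in sta1. Of 3788 probe sets under 50 on all 5 wild-type arrays, 4, or 0.106%, reached 100 on both sta1 arrays. AT2G03130 was one of these 4, together with NDB4, an alternative NAD(P)H dehydrogenase, at 326 and 699.8 on the sta1 arrays, and a pair of probe sets without an assigned gene. The opposite pattern, under 50 on both sta1 arrays and at least 100 on every wild-type array, was seen in 5 of all 22746 probe sets. It asks for silence on fewer arrays, so the counts of the opposite patterns are not compared. When the wild-type limit was set at 100 in place of 50, 83 of 6659 probe sets (1.25%) reached 100 on both sta1 arrays. This class needs no gap between the groups, and its median log2 difference was 0.93. AT5G60250, AT2G18190 and AT2G03130 were among these 83 probe sets. AT2G41730 was in neither class, because 4 of its 5 wild-type signals were above 100. Without Col-LUC 1, the number under 50 in wild type and raised in sta1 was 15 in place of 4.

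Col-LUC 1, the wild-type array of the same chip lot as sta1, gave smaller differences than the other wild-type arrays in AT2G41730 and AT5G60250. Against Col-LUC 1 alone, the sta1 mean was 4.71-fold higher for AT2G41730, in place of 19.7-fold against the other 4 wild-type arrays. For AT5G60250 it was 5.46-fold higher in place of at least 9.80-fold. For AT2G18190 it was 9.35-fold, against at least 7.85-fold over the other arrays, and for AT2G03130 at least 7.17-fold in both, as all of those wild-type signals lay under the floor. Within the shared session, sta1 1 exceeded Col-LUC 1 by a factor of 4.32 in AT2G41730, 5.22 in AT5G60250 and 8.32 in AT2G18190 on the signal scale. In AT2G03130, where Col-LUC 1 lay under 50, the log2 difference within that session was at least 2.18. The signals of Col-LUC 1 thus lay between sta1 and the rest of wild type in AT2G41730 and AT5G60250 and did not in AT2G18190. The part of chip lot and session in the differences was not tested, as each comparison within them rests on 1 wild-type array.

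**Figure D2:**
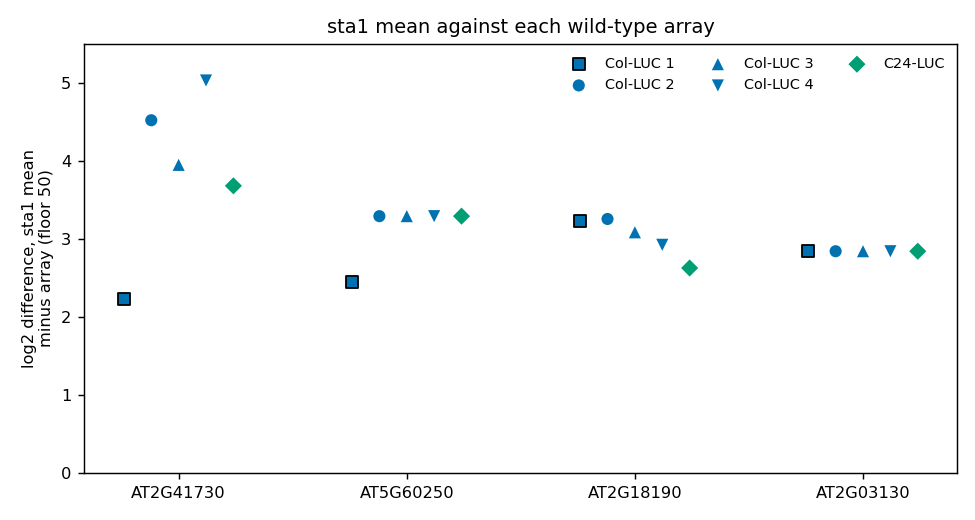
Log2 difference between the sta1 mean and each wild-type array, after the floor of 50, for the 4 genes, with 1 symbol per wild-type array and Col-LUC 1 as outlined squares. Every difference lies above 2, and Col-LUC 1 gives the smallest difference in AT2G41730 (2.24) and AT5G60250 (2.45).

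The 2 wild-type strains were compared next. The genes were not chosen for a difference between the strains. Their grouping as nearly silent did use wild-type signals of both, so low levels in both are partly given by the choice. C24-LUC had 1 array, and its spread was taken to equal that of the other groups. AT5G60250 and AT2G03130 lay under 50 in C24-LUC and on most or all Col-LUC arrays, so for them no difference could be read. AT2G18190 entered the test through its sta1 signals alone, so only its values are given, a C24-LUC signal of 77.3 beside a Col-LUC range of 44.9 to 62.9. AT2G41730 was the only one of the 4 that reached 100 in wild type. It had a log2 difference of 0.25 ± 0.88 (SE, limma adjusted p = 0.945, where 1.37% of all tested probe sets were called in either direction), with 199 in C24-LUC inside the Col-LUC range of 78 to 542.2. That error is wide enough to hold differences of more than 2-fold either way. In order of level, sta1 stood highest in each of the 4 genes, and the order of C24-LUC and Col-LUC was not resolved with 1 C24-LUC array.

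The genes most like the 4 in pattern were found by Pearson's correlation, over the 7 arrays, with the mean of their standardised log2 signals. Since the sta1 arrays stand apart from the rest, such a correlation mostly records the contrast that chose the genes, and it is given as a description over arrays that share lots and sessions. The highest of 8487 candidates was AT5G14580 (r = 0.996), whose signal was 371 and 394.1 on the sta1 arrays and 115.6 to 144.4 in wild type. AT1G02330 (r = 0.995) and AT2G35480 (r = 0.989) followed. AT3G53220 (r = 0.986), AT3G45730 (r = 0.986) and AT3G28580 (r = 0.985) completed the 6 closest. AT3G45730 and AT3G28580 were also dim in wild type, at 11.6 to 64.3 and 4.1 to 78.1, with AT3G45730 at 295.6 and 263.2 and AT3G28580 at 196.3 and 199.1 in sta1.

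Genes beside the 4 on the chromosome were examined to see whether the rise extended along the DNA. The order of genes was taken from the TAIR10.1 assembly in RefSeq. Of the 8 nearest protein-coding neighbours, 5 had a probe set assigned to them alone, and 3 of these passed the filter for testing. AT2G18180, next to AT2G18190, had higher signals in sta1, with values of 173 and 147.9 against 59.6, 49.7, 52.3 and 76.9 on the Col-LUC arrays in order and 61.9 on C24-LUC. The groups did not overlap. Like AT2G18190 it reached 100 on the sta1 arrays alone and entered the test through them. Its call is therefore not read, and only its values are given. The log2 difference was 1.43 ± 0.26 (SE), or at least 2.69-fold, and 1.42 against Col-LUC 1 alone. It lay between 1.37 and 1.52 with 1 wild-type array left out, and was 0.68 with a floor of 100. Without either sta1 array AT2G18180 failed the filter.

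Neither neighbour of AT2G03130 passed the test. SPP, a signal peptide peptidase that cuts proteins within membranes, is adjacent to AT2G03130 on 1 side and had signals of 2184.9 and 2799.3 in sta1 and 1952.9 to 2526 in wild type. Its log2 difference was 0.15 ± 0.16 (limma adjusted p = 0.592), and it was below 0 with chip lot as a block (-0.031) and without sta1 2 (-0.025). AT2G03140, on the other side of AT2G03130, had 632 and 680.2 in sta1 and 434.7 to 751.3 in wild type, with a difference of 0.28 ± 0.24 (limma adjusted p = 0.511). Both groups overlapped in each of these neighbours, while AT2G03130 between them was at least 7.17-fold higher. AT5G60260, whose annotated span overlaps that of AT5G60250, gave 55.3 and 19.1 in sta1 and 27.9 to 63 in wild type, and AT5G60240, on the other side, lay under 50 on all 7 arrays. Neither was tested. The nearest neighbours of AT2G41730 were not analysed here, as no probe set was assigned to them alone.

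**Figure D3:**
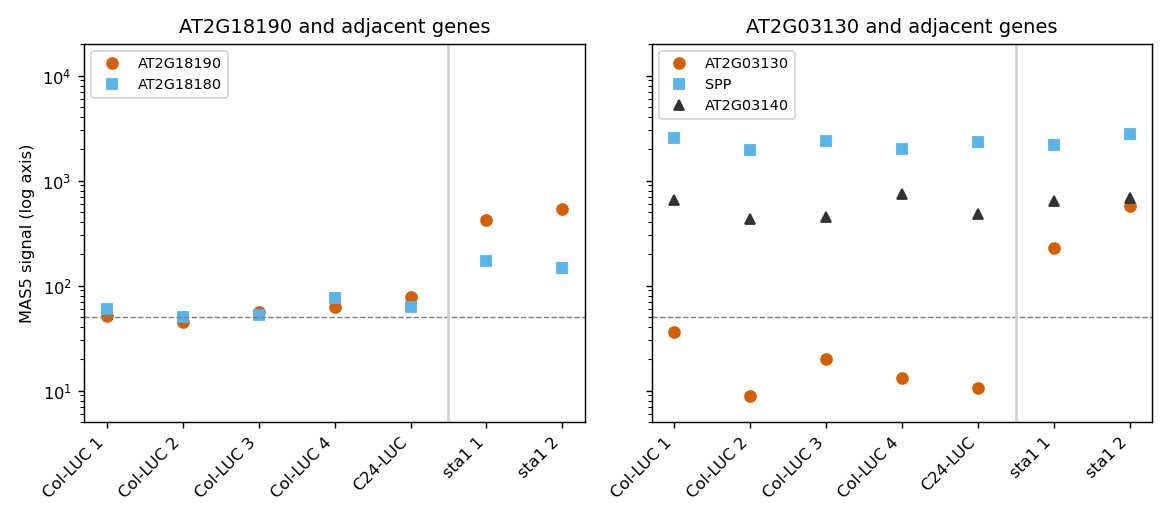
MAS5 signal (log axis) on each array of AT2G18190 with its neighbour AT2G18180 (left) and of AT2G03130 with its neighbours SPP and AT2G03140 (right). The dashed line marks 50 and the vertical line separates wild type from sta1. AT2G18180 is higher in sta1 (173 and 147.9) than in wild type (49.7 to 76.9), whereas SPP and AT2G03140 overlap between the groups.

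Of the 12 tested genes of the mitochondrial dysfunction response, 6 passed as higher in sta1, a number that includes calls resting on the sta1 signals. The list held 24 genes, none of them among the 4, and was drawn up with results for several of them known, so it is not independent evidence of its direction. Of its genes, 12 had a probe set of their own, and all of these were tested. By limma 6 rose and 0 fell, where 0.542% of all tested probe sets rose and 0.766% fell. Of these 6, NDB4 entered the test through its sta1 signals alone, so its call is not read. AT2G04070 and AT2G32020 also needed their sta1 signals to pass the filter, so their calls are conditional on those signals. The number that rose is therefore given as a description. The median log2 difference of the list was 2.48, beside 0.01 over all tested probe sets, and 1.64 beside 0.01 against Col-LUC 1 alone. No overlap between the groups, with sta1 above, was seen in 10 of the 12, beside 16.7% of all tested probe sets.

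Among those that rose, AT2G04070 had signals of 427.1 and 415.1 in sta1. In wild type it had 122.3, 55.5, 79.9 and 40.8 on the Col-LUC arrays in order and 17.6 on C24-LUC. It was at least 6.28-fold higher in sta1 (log2 difference 2.65 ± 0.37, limma adjusted p = 0.0217), and with a floor of 20 the call was lost (limma adjusted p = 0.0630). AT2G32020 had 338.1 and 401.7 in sta1 and 62.4 to 131.1 in wild type, or a 4.49-fold difference (2.17 ± 0.31, limma adjusted p = 0.0238). The others that passed were AT2G21640, with a log2 difference of 3.12, and NDB4, AT2G04050 and AT5G51440, with differences of at least 3.26, 4.44 and 2.87, as some or all of their wild-type arrays stood at the floor. NDB4, at 42 on Col-LUC 1 and 6.8 to 29.7 on the other wild-type arrays, shared with AT2G03130 a wild-type signal under 50 throughout. For NDB4 only the values are read, as it entered the test through sta1 alone. NDB2, an alternative NAD(P)H dehydrogenase like NDB4, had 1004.8 and 1091.8 in sta1 and 316.8 to 827.5 in wild type. Its difference of 1.14 ± 0.33 did not pass (limma adjusted p = 0.107), and against Col-LUC 1 it was 0.34. The difference of the glutathione transferase GSTU25 was 2.55 ± 0.65 (limma adjusted p = 0.0848) and 0.74 against Col-LUC 1. The number that passed moved with single arrays, and so did the number called over the whole array. Leaving out Col-LUC 1 gave 10, Col-LUC 2 gave 2, Col-LUC 3 gave 3 and Col-LUC 4 gave 2. Over the whole array, beside 205 in the main fit, these fits called 1382, 53, 43 and 57 in the same order. With either sta1 array left out a lone sta1 array remained, so nothing is read from those fits. With a floor of 20 the number of list genes that passed was 3. With chip lot or replicate number as a block it was 0, but in those fits 0 of all 15673 tested probe sets passed, so nothing is read from it.

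**Figure D4:**
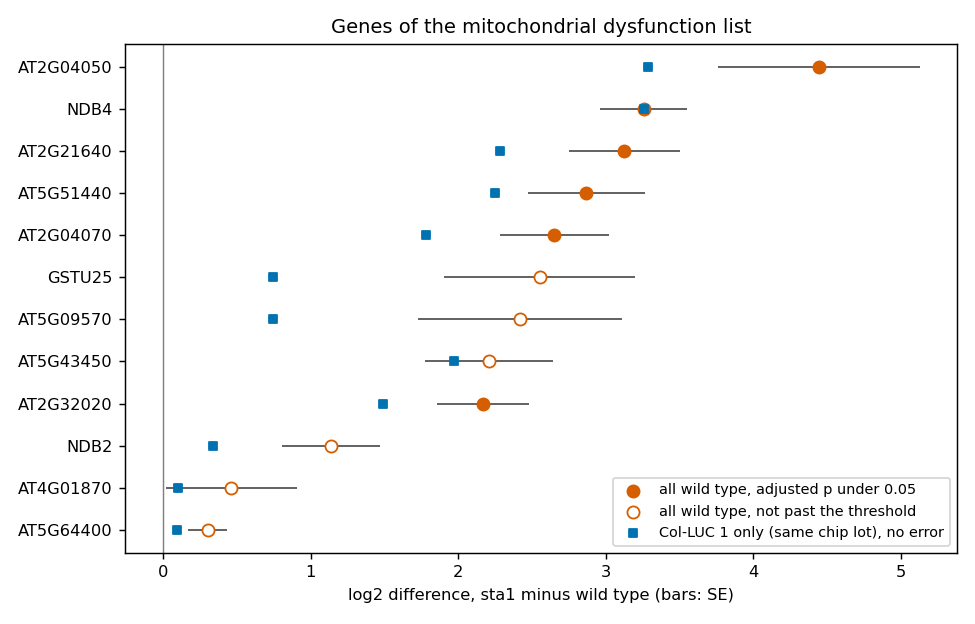
Log2 difference between sta1 and wild type for the 12 tested genes of the mitochondrial dysfunction list, as circles with SE bars over all 5 wild-type arrays (filled where the limma adjusted p was under 0.05) and as blue squares against Col-LUC 1 alone. All 12 differences are positive, from 0.30 (AT5G64400) to at least 4.44 (AT2G04050), and the squares lie at or to the left of the circles.

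No tested gene of the low oxygen response passed the test in either direction. Of 25 genes in the list 13 had a probe set of their own and 11 were tested, of which 0 passed by limma. An unadjusted p under 0.05 was found for 2 of the 11, as for 23.5% of all tested probe sets. Both were lower in sta1. AT1G19530 had signals of 156.1 and 68.6 in sta1 and 240.6 to 624.8 in wild type (log2 difference -1.87 ± 0.46, limma adjusted p = 0.0781). AT4G39675 had 263.5 and 148.9 in sta1 and 301 to 943.2 in wild type (-1.39 ± 0.45, limma adjusted p = 0.127). AT3G10040, also known as HRA1, a factor that dampens the response, had a difference of 0.79 ± 0.38 (limma adjusted p = 0.251). The median of the list was 0.54 over all wild-type arrays and -0.13 against Col-LUC 1.

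Marker genes of tissues were measured beside these results, because the RNA came from seedlings as a mixture of tissues, in which fewer cells of a type cannot be told apart from less RNA per cell. The green tissue markers with a probe set of their own, 3 of 7, had a summed signal of 38536.5 to 46345.6 in wild type and 25476.8 to 27996.4 in sta1. Of these, LHCB4.1, a light-harvesting protein (limma adjusted p = 0.0360), and PSAN, a photosystem I subunit (limma adjusted p = 0.00642), fell. Of all tested probe sets, 0.766% fell. PSAN had 2531.7 and 1932 in sta1 and 7611.4 to 11499.4 in wild type, and LHCB4.1 had 11363.5 and 11260.2 against 15260.8 to 20155.4. RCA, which activates Rubisco, did not pass, with 14101.2 and 12284.6 in sta1 and 14781.5 to 15664.3 in wild type. The root markers PYK10 and EXPA18, 2 of 6, had summed signals of 10099.5 to 14184.7 in wild type and 9692.6 to 11282.3 in sta1, and 0 passed by limma, with 0 at an unadjusted p under 0.05. The pollen and flower markers AT3G28750 and AT5G07430, 2 of 6, lay under 50 on all 7 arrays. The part of tissue composition in the rise of the 4 genes was not tested.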

How the data were processed

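The deposited values are intensity signals made by the authors with MAS5 (version not stated in the labels) and brought to a target of 500 per array, per the labels. Chip lot and session were read from the array records; the record of Col-LUC 4 gives neither. After 64 control probe sets were left out, 22746 remained. Signals under 50 were set to 50 and converted to log2. The 15673 probe sets that reached 100 on 2 or more arrays entered a linear model in limma 3.58.1 under R 4.3.3 (lmFit, eBayes with an intensity trend), with Benjamini-Hochberg adjustment over all of them and a threshold of 0.05. Wild type was all 5 arrays; C24-LUC and Col-LUC were compared in a fit of 3 groups. The procedure was also run on simulated data without lot or session effects. The outcome is not given here, and nothing is read from it.

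Genes were named from probe sets with 1 gene in the platform annotation (13513, of which 13436 matched the TAIR10.1 RefSeq table; 503 had several genes and 8730 none). The text names the 4 genes, the 6 most alike in pattern, probe sets silent in wild type and raised in sta1, nearest neighbours, all list members that passed, or the 2 with the smallest p where none did, and a few others (NDB2, GSTU25, AT3G10040, the tissue markers and the genes at the ends of a range) chosen after their values were seen. A gene with several probe sets was represented by the brightest. The 4 genes and all lists were chosen with earlier results of these data known. Related proteins and promoter motifs were planned and not analysed here, as the sequences were not at hand. The alternatives covered the floor, filter, scaling, trend, array weights, blocks and each array left out. No 2 arrays shared more than 60 of 22746 values, and each was counted as 1 sample. The number of arrays limits the precision.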

Additional observations from a re-analysis of the deposited data

Results flagged for a closer look

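Some wild-type signals of the genes named were remote from the others of their group, by a gap to the nearest array that exceeded the 95% limit for a group of 4 or 5. In AT2G41730, Col-LUC 1 had 542.2 and the other 4 wild-type arrays 78 to 199. In AT3G28580 it had 78.1 and those arrays 4.1 to 21.9. Within Col-LUC, Col-LUC 1 stood at 713 in AT5G09570 against 90.5 to 180.3, at 1325.7 in AT4G01870 against 679.6 to 761.1, and at 131 in AT3G53220 against 103.1 to 106.9. GSTU25 stood at 777.6 on Col-LUC 1 against 150.6 to 235.7 within Col-LUC and 115.3 to 235.7 with C24-LUC included. AT2G17850, of the low oxygen list, had 90.7 on Col-LUC 2 against 228.2 to 253.1. These are 8 of 84 groups examined, where chance at 1 in 20 would give 4.2 if the groups were independent. They share arrays, and a gene could count within Col-LUC and again within wild type, so no excess is read. Col-LUC 1 was the array apart in 6 of the 7 genes. AT4G01870 on C24-LUC, at 2256.8, was higher than on Col-LUC 1.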

How the results depend on the processing

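The difference of the 4 genes between sta1 and wild type was positive under all 16 alternatives run. As the genes were picked for this difference, nothing is read from its sign. The alternatives are not all distinct. Using Col-LUC alone as wild type is the same fit as leaving out C24-LUC. With chip lot as a block, the estimate is the difference from Col-LUC 1 alone. The size of the difference moved with the floor and with the wild-type arrays used. The median log2 difference of 3.07 was 3.81 with a floor of 20, 2.27 with a floor of 100, 2.28 in the shared session and 2.65 when chip lot was a block. It lay between 2.96 and 3.35 when 1 array was left out, and was 3.07 with quantile normalization and 3.07 with equal medians. Over all of these, AT2G41730 ranged from 2.11 to 4.30, AT5G60250 from 2.29 to 3.73, AT2G18190 from 2.26 to 3.24 and AT2G03130 from 1.84 to 3.996. The 205 probe sets called became 88 without a filter, 3468 with array weights, and 0 with chip lot as a block or with the replicate block, where 2293 and 2198 had an unadjusted p under 0.05. In both block fits most wild-type arrays had a block to themselves, so little was left to estimate the spread behind the number called. With 1 array left out the number lay between 0 and 1382, the latter without Col-LUC 1. It was 53, 43 and 57 without Col-LUC 2, Col-LUC 3 and Col-LUC 4. Of the mitochondrial dysfunction list, 3 passed with a floor of 20, 0 with the replicate block or chip lot as a block, and 0 to 10 with 1 array left out. The probe sets silent in wild type and raised in sta1, 4 in all, became 2 with silent set under 30, 83 with silent set under 100, 2 with raised set at 200, and 4 to 15 with 1 array left out. Between C24-LUC and Col-LUC, AT2G41730 changed sign without Col-LUC 4, within a range of -0.11 to 0.82 with 1 array left out. SPP changed sign with chip lot as a block (-0.031) and without sta1 2, within a range of -0.025 to 0.33 with 1 array left out. AT5G60250, AT2G18190 and AT2G03130 could not be tested for the strains without either sta1 array, as they then failed the filter. The causes were not tested.

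Equal replicate numbers were not taken as pairs. Deviations from the group mean correlated at 0.192 between sta1 1 and Col-LUC 1, which shared a session, and at -0.00700 between sta1 2 and Col-LUC 2. With the replicate block the median difference of the 4 genes was 3.06.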

Other observations

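A pair of probe sets without an assigned gene lay under 50 on all wild-type arrays and were raised in sta1. The first was at 115.5 and 419.6 on the sta1 arrays and at most 19.6 in wild type. The other was at 128.7 and 146.3 in sta1 and at most 10.4 in wild type. The seed marker AT2G28490 had a signal of 176.9 on Col-LUC 2 and 173.9 on C24-LUC and 2 to 17.2 on the other 5 arrays.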
